A study of Mus musculus with 12 samples.

Results

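Ccnf, which encodes cyclin F, and 9 further genes, Ap5b1, Hps6, Pcyox1l, Ttc30b, Lcmt2, Hdhd3, Zcchc3, Efna4 and Fam222b, were followed in heated and unheated mouse embryonic fibroblasts (MEFs), which are embryo cells of connective tissue grown in culture. The 10 genes, of 54532 in the deposited table, were chosen by their FPKM values. They had the largest falls with heat in cells that lack CHIP, among genes within limits that are given below with the edge of the choice. The choice used the values of the CHIP-KO libraries, so those values are given here as a description. The genes were tested by their change in wild-type libraries, which the choice did not use. The spread in that test was estimated from all 12 libraries, so its p-values also rest on the CHIP-KO libraries. Stub1 encodes CHIP, a ubiquitin ligase that acts on clients of chaperones. RNA was sequenced from 4 groups of 3 libraries each: CHIP-KO MEFs given heat shock, CHIP-KO MEFs with no treatment, WT MEFs given heat shock and WT MEFs with no treatment. Heat shock was 1 hour at 43 °C. How the knockout was made, how many clones or embryos the cells came from, and whether the cells were left to recover after heat is not stated in the sources used here. The labels do not say that replicate libraries stem from separate cultures, so any p-value here reflects only how far these libraries spread, which may be technical. Because 1 time was sampled, the values show how much of each mRNA was left after heat and not how fast it was lost.

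Cyclin F is named as a cyclin, but it acts as the F-box protein of an SCF ubiquitin ligase, the subunit that binds the proteins to be marked for destruction, and it is known for its work in the S and G2 phases of the cell cycle. The other 9 genes have unrelated roles, in membrane traffic, cilia, tRNA modification, nucleic acid sensing and cell contact. As background, heat shock is known to switch on chaperone genes through HSF1 while transcription of many other genes is reduced, and the level of an mRNA depends on both its synthesis and its decay. Neither was measured here.

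The upstream DNA of 4 of the genes is shown because these had the least mRNA left in heated wild-type cells, the contrast that the choice did not use, and because genes that move together may be compared for shared promoter letters. Each sequence is the 250 bases before the RefSeq start of the gene on GRCm38.p6, 5′ to 3′ on the strand of the gene. Capitals mark every match, on either strand, to TTTGAA (the core of the CHR element of cell cycle promoters), to CCAAT (the CCAAT box), to GGGCGG (the GC box) or to GAANNTTC (a core of the heat shock element), where N is any base. On the other strand CCAAT reads as ATTGG and the GC box as CCGCCC.
Ccnf, chr17:24251410-24251659, minus strand: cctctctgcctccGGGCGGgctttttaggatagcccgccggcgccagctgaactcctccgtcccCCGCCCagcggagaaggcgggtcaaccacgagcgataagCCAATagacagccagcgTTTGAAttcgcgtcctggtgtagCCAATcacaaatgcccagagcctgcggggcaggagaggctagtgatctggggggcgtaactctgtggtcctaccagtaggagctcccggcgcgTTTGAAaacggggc
Lcmt2, chr2:121140699-121140948, minus strand: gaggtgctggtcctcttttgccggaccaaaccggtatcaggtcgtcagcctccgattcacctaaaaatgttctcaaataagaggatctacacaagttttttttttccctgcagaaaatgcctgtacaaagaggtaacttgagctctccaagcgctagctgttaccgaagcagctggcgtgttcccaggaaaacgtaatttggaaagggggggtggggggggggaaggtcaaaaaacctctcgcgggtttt
Ap5b1, chr19:5567774-5568023, plus strand: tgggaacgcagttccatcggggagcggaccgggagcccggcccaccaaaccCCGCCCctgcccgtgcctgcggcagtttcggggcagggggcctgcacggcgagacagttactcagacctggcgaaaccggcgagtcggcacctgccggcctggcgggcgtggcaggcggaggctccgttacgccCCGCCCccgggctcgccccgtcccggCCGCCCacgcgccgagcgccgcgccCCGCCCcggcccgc
Zcchc3, chr2:152415045-152415294, minus strand: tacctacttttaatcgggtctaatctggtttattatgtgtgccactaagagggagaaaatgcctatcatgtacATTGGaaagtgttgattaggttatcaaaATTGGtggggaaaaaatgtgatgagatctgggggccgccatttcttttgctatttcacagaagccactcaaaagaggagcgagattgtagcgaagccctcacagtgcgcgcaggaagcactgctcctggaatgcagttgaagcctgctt

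Ccnf had 2 TTTGAA matches, which begin 130 and 14 bases before the start, and 2 CCAAT matches, which begin 147 and 107 bases before it. No other member window held TTTGAA, which occurred in 15.99% of the 32851 windows of this length in the RefSeq table. The table held 9 windows for 8 of the 10 genes (Fam222b had 2 starts); Ttc30b and Pcyox1l had none there. CCAAT was found in 4 of the 8 genes, against 33.9% of all windows. GGGCGG was found in 5 of the 8, against 32.7% of all windows, with 4 matches in Ap5b1. GAANNTTC was found in 0 of the 8, against 6.69% of all windows. The 4 windows printed thus share no motif among these, and Lcmt2 held none of them. These matches are descriptions of letters, and say nothing on binding.

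Each library held 15591924 to 26954112 fragments, as recovered from the table. Stub1 stood at 1.08 ± 0.0885 FPKM (fragments scaled to gene length and library depth; mean ± SD, n = 3 in this and all groups) in heated CHIP-KO and 55.4 ± 2.25 FPKM in heated wild-type cells, and at 0.971 ± 0.229 FPKM in unheated CHIP-KO and 61.7 ± 3.63 FPKM in unheated wild-type cells, as the genotype labels say. The 10 fibroblast markers had a summed level of 3872 to 4100 FPKM in heated and 3356 to 3545 FPKM in unheated CHIP-KO cells, and of 2591 to 2910 FPKM in heated and 1617 to 1975 FPKM in unheated wild-type cells. Col1a1, Vim and Fn1 were high in all groups, but Thy1, Dcn and Lum had means of at most 0.0881 FPKM in both wild-type groups, and Lum did not exceed 0.176 FPKM in any library. Single markers differed widely between the genotypes. Unheated means in CHIP-KO and wild type were 517 and 35.6 FPKM for Col1a2, 19.1 and 1.00 FPKM for Pdgfra, and 8.28 and 0.00524 FPKM for Thy1. Vim went the other way, at 492 and 599 FPKM. Immune markers summed to 8.47 to 10.7 FPKM in heated and 3.91 to 4.33 FPKM in unheated CHIP-KO cells, and to 12.3 to 15.4 FPKM in heated and 1.86 to 2.98 FPKM in unheated wild-type cells. Nearly all of this was Cd68, at means of 8.85, 3.72, 13.4 and 2.41 FPKM in these groups, while Adgre1 and Cd3e were at 0 and Ptprc did not exceed 0.0104 FPKM. The part of these marker differences in the results was not tested. In bulk RNA, fewer cells with a transcript and less transcript per cell cannot be told apart. Both wild-type replicates 1 and the heated CHIP-KO replicate 1 differed more from their fellow replicates than those did from each other. The chi-square per degree of freedom was 10.4 to 26.7 in pairs with them and 3.39 to 5.09 in the other pairs. Some results are therefore also given without replicates 1.

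All 10 genes were lower after heat in wild-type cells as well. Each of the 10 passed the filter on low values and the limma test (Benjamini-Hochberg adjusted p under 0.05 over 13023 genes), where 30.5% of all tested genes were called lower. That test takes its spread from all 4 groups, those that chose the genes among them. With the 2 wild-type groups fitted alone, the 10 were again called lower, as were 3179 of all tested genes. The limma adjusted p was then 4.78e-05 for Ccnf and 0.00132 for Ttc30b, larger than the values given below. In each, the 3 heated wild-type libraries lay below the 3 unheated ones, which held for 31.1% of tested genes. Between 16.6% and 71.9% of the unheated level was left, with a median of 30.0%, while the median gene with at least 2 FPKM in unheated wild-type cells kept 93.3%. In CHIP-KO cells, where the genes were chosen, 23.3% to 42.3% was left, with a median of 30.7%, against 98.7% for the median gene. There 11.4% of tested genes were called lower, and the heated groups lay below the unheated ones in 25.9%. On the log2(FPKM + 1) scale, which understates changes of genes with low values, the median change of the 10 was -1.30 in CHIP-KO and -1.29 in wild-type cells, beside -0.0018 and -0.016 over all tested genes. An exact permutation test on 3 against 3 libraries cannot give a p under 0.1, and it gave 0.1 for each of the 10 genes in wild type.

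**Figure D1:**
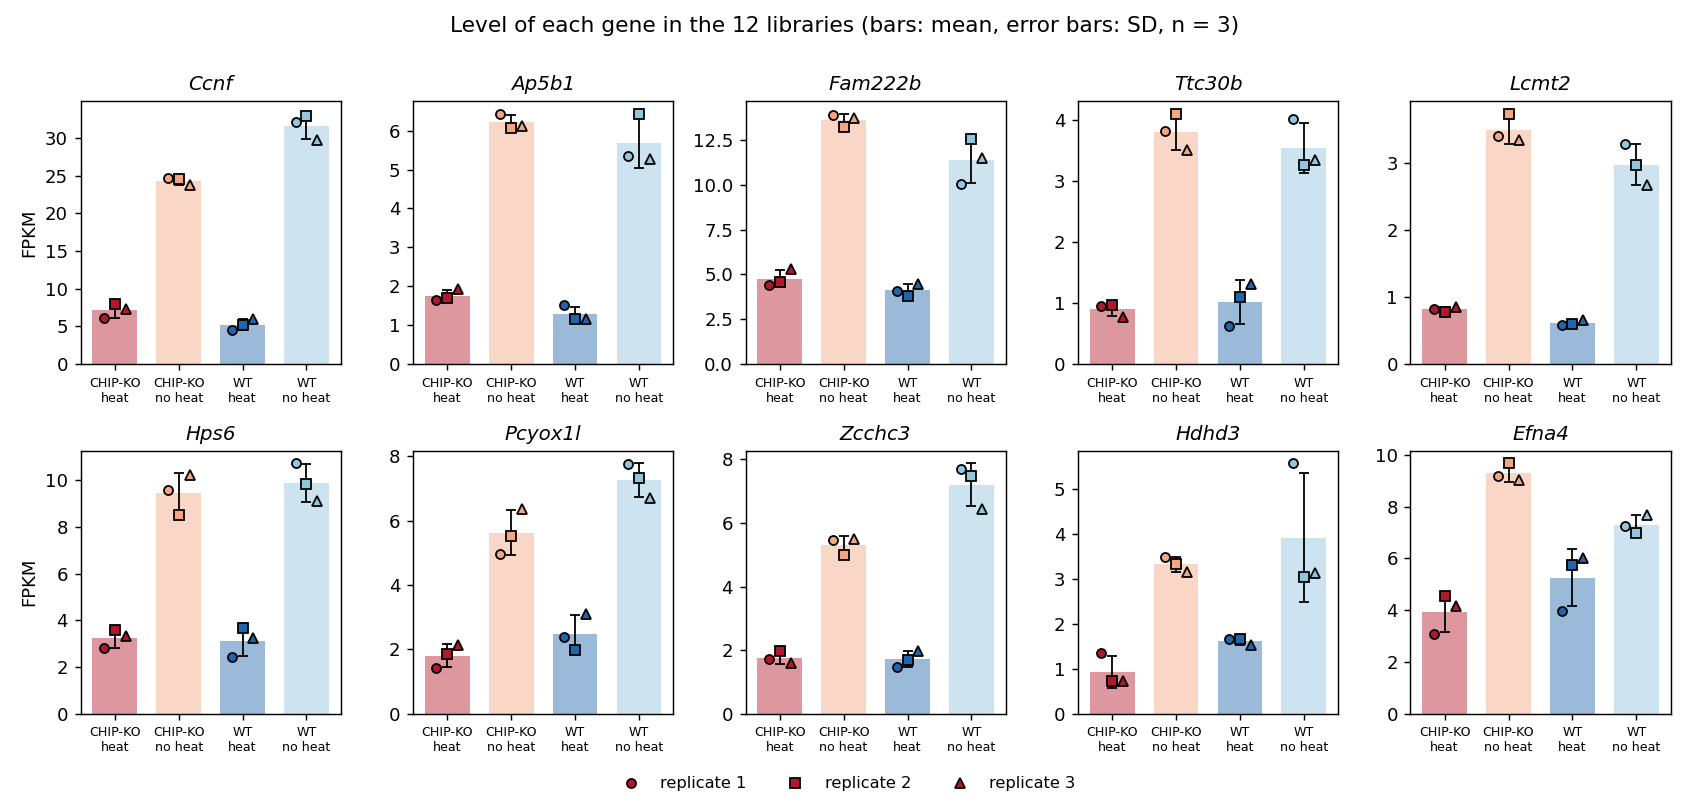
Level in FPKM of the 10 genes in each of 12 libraries (symbols, replicates 1 to 3), with the mean (bars) and SD (error bars) of each group of 3. In every panel both heated groups lie below the unheated group of their genotype; Efna4 in wild type has the smallest gap, with 3.99 to 6.02 FPKM heated and 6.97 to 7.69 FPKM unheated.

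Ccnf (ENSMUSG00000072082, chromosome 17, positions 24223232 to 24251409, minus strand) was the most abundant of the 10 without heat. Its replicates 1, 2 and 3 stood at 6.05, 8.03 and 7.35 FPKM in heated and 24.7, 24.6 and 23.7 FPKM in unheated CHIP-KO cells. In wild-type cells they stood at 4.53, 5.20 and 5.98 FPKM heated and 32.0, 32.9 and 29.7 FPKM unheated. The heated libraries of the genotypes did not overlap, and CHIP-KO was the higher; without heat CHIP-KO was the lower. Wild-type cells kept 16.6% ± 1.42 (SE, n = 3 per group) of the unheated level and CHIP-KO cells 29.4% ± 2.41. The fall in wild type was -2.39 on the log2 scale (SE 0.0982, limma adjusted p = 1.81e-08), and it ranked first of 11027 tested protein-coding genes. Among 9370 protein-coding genes with at least 2 FPKM unheated, only 1 kept a smaller share in wild type. The log2 change in CHIP-KO cells was -1.64, so the change with heat was 0.75 less negative there (SE 0.139). That difference was not tested, since the CHIP-KO values chose the gene. Each heated library still held 271 to 479 fragments of Ccnf, so counting error was small beside the fall.

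The genes that work with cyclin F mostly fell with heat in wild-type cells and mostly did not pass in CHIP-KO cells. Of 9 tested genes of the SCF core and its neddylation cycle, 1 fell and 1 rose with heat in CHIP-KO cells, while 7 fell and 0 rose in wild-type cells, where over all genes 11.4% fell and 8.65% rose in CHIP-KO and 30.5% fell and 28.1% rose in wild type. Of 14 tested substrates and partners of cyclin F, 1 fell and 1 rose in CHIP-KO, while 11 fell and 1 rose in wild type, at median log2 changes of -0.03 and -0.52. The difference between the genotypes in the change with heat passed the limma interaction test as more positive in CHIP-KO for 3 of the 9 and 9 of the 14 genes, and as more negative for 0 and 1, where 17.9% and 17.3% of all tested genes did so. With every library scaled to an equal sum, which moved the median of all genes by -0.30 in CHIP-KO and -0.21 in wild type, 8 of the 9 and 12 of the 14 fell in CHIP-KO as well, and 9 and 12 fell in wild type. Rrm2, a subunit of the ribonucleotide reductase and a cyclin F substrate, stood at 32.2 ± 0.985 FPKM in heated and 32.4 ± 0.998 FPKM in unheated CHIP-KO cells, against 25.4 ± 1.73 FPKM in heated and 69.6 ± 4.62 FPKM in unheated wild-type cells. It fell in wild type by 1.42 on the log2 scale (limma adjusted p = 2.80e-08). Mybl2 and E2f2, which encode transcription factors of the cell cycle, fell in wild type by 1.14 and 0.91 and gave log2 changes of -0.12 and 0.04 in CHIP-KO, where neither passed (limma adjusted p = 0.315 and 0.839).

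Among 20 other tested cyclins, 2 fell and 2 rose in CHIP-KO, and 10 fell and 5 rose in wild type. An equal sum per library gave 15 that fell and 1 that rose in CHIP-KO, and 11 and 3 in wild type. Ccnb1, the mitotic cyclin B1, stood at 32.7 ± 1.90 FPKM in heated and 36.7 ± 0.851 FPKM in unheated CHIP-KO cells, with a log2 change of -0.16 that did not pass. In wild type it stood at 26.3 ± 3.41 FPKM heated and 64.0 ± 4.01 FPKM unheated, a fall of 1.26 on the log2 scale. The D-type cyclins Ccnd1 and Ccnd2 fell in wild type by 2.22 and 1.52. Ccnd1 stood at 3.83 ± 0.0874 FPKM in heated and 3.54 ± 0.295 FPKM in unheated CHIP-KO cells. In wild type it stood at 2.81 ± 0.418 FPKM heated and 16.8 ± 1.78 FPKM unheated. It was thus already low in CHIP-KO cells without heat. Ccnd2 had like unheated means, 6.01 FPKM in CHIP-KO and 6.07 FPKM in wild type. In CHIP-KO cells none of these 3 cyclins passed, whereas Ccnf kept 29.4% of its unheated level there. Of 31 other F-box genes, 4 fell and 2 rose in CHIP-KO, and 8 fell and 5 rose in wild type. Under equal sums these counts were 23 and 0 in CHIP-KO, and 18 and 2 in wild type. Fbxo46 fell in both, by 0.62 in CHIP-KO and 0.55 in wild type on the log2 scale, and Fbxo30 rose in both, by 0.44 and 0.54. Fbxo32, an F-box gene known from muscle wasting, rose in wild type by 1.47 and gave -0.28 in CHIP-KO, which did not pass.

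**Figure D2:**
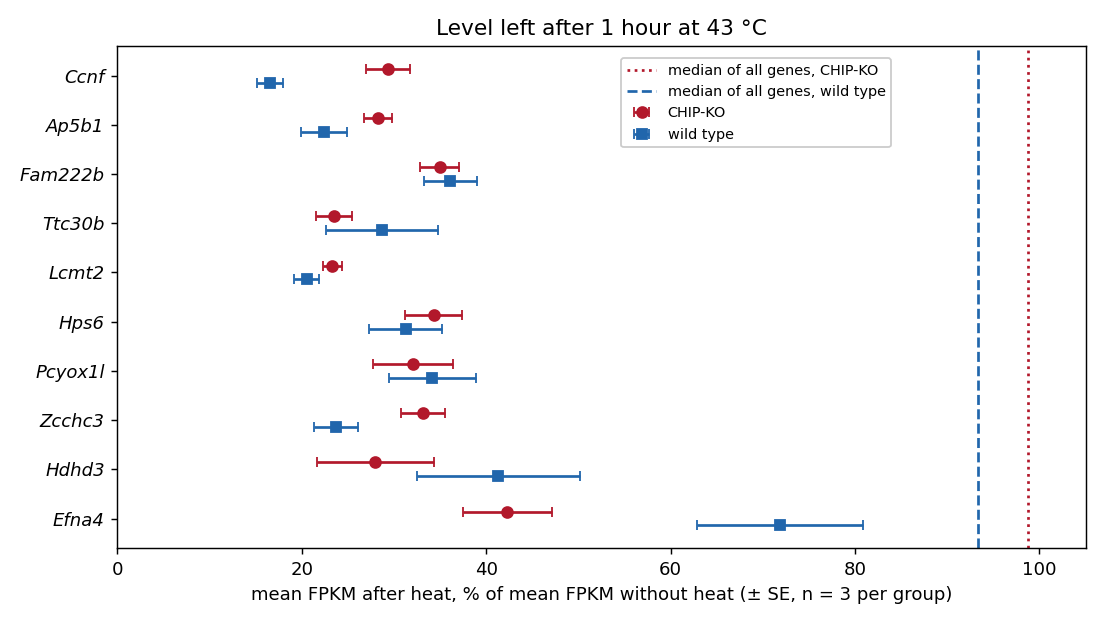
Mean FPKM after heat as a percentage of mean FPKM without heat for each of the 10 genes (± SE, n = 3 libraries per group), in CHIP-KO cells (circles) and wild-type cells (squares); vertical lines give the median over protein-coding genes with at least 2 FPKM unheated. Values of 23.3% to 42.3% in CHIP-KO and 16.6% to 71.9% in wild type lie below the medians of 98.7% and 93.3%, and Efna4 in wild type lies closest.

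Ap5b1 and Hps6 serve membrane traffic in the endolysosomal system, and Pcyox1l is related to the gene of a lysosomal enzyme. Ap5b1 (ENSMUSG00000049562, chromosome 19, positions 5568074 to 5571261, plus strand) encodes a large subunit of the AP-5 adaptor, which acts at late endosomes. Its replicates stood at 1.65, 1.70 and 1.93 FPKM in heated and 6.44, 6.08 and 6.13 FPKM in unheated CHIP-KO cells. In wild type they stood at 1.51, 1.15 and 1.17 FPKM heated and 5.36, 6.43 and 5.29 FPKM unheated. The heated libraries formed a group far below the unheated ones in both genotypes, with 28.3% ± 1.47 left in CHIP-KO and 22.4% ± 2.52 in wild type (limma log2 change -1.56, SE 0.0851, adjusted p = 1.24e-07). Of the 5 other tested genes of the AP-5 complex and its partners, 1 fell and 0 rose in CHIP-KO, and 2 fell and 2 rose in wild type; under equal sums 5 fell and 0 rose in CHIP-KO, and 2 fell and 1 rose in wild type. The small subunit gene Ap5s1 fell in both, by 0.67 in CHIP-KO and 0.49 in wild type, and the medium subunit gene Ap5m1 fell in wild type by 0.21. Zfyve26, a partner of AP-5, rose in wild type by 0.64 and gave -0.18 in CHIP-KO, which did not pass. Of 19 subunits of the other AP adaptors, 2 fell and 0 rose in CHIP-KO, and 8 fell and 4 rose in wild type. Equal sums gave 18 that fell and 0 that rose in CHIP-KO, and 13 and 2 in wild type. The largest of these falls in wild type were Ap3m1 by 1.04, Ap1s1 by 0.73 and Ap2a2 by 0.67, and of these Ap3m1 also fell in CHIP-KO, by 0.30.

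Hps6 (ENSMUSG00000074811, chromosome 19, positions 46003478 to 46006173, plus strand) encodes a subunit of BLOC-2, a complex for the making of lysosome-related organelles that is affected in Hermansky-Pudlak syndrome. It ranged from 2.79 to 3.59 FPKM in heated and from 8.49 to 10.2 FPKM in unheated CHIP-KO cells. In wild type it ranged from 2.40 to 3.65 FPKM heated and from 9.12 to 10.7 FPKM unheated, with a change of -1.42 on the log2 scale (SE 0.118, limma adjusted p = 2.48e-06). The shares left, 34.3% ± 3.11 in CHIP-KO and 31.3% ± 3.98 in wild type, overlapped within their errors. The annotation places a long noncoding gene, 4930505N22Rik, over the whole of Hps6 on the same strand, so the split of reads between them is uncertain; its mean was 0.131 and 0.0565 FPKM in heated and unheated CHIP-KO cells and 0.174 and 0.0512 FPKM in heated and unheated wild-type cells. Of 12 tested BLOC subunits other than Hps6, 2 fell and 1 rose in CHIP-KO, and 3 fell and 3 rose in wild type. Under equal sums per library 9 fell and 1 rose in CHIP-KO, and 7 fell and 1 rose in wild type. Bloc1s3 fell in both, by 0.34 and 0.50, Bloc1s4 fell in wild type by 0.50, and Bloc1s1 rose in both, by 1.49 in CHIP-KO and 2.17 in wild type. Bloc1s1 was low without heat, at 0.550 ± 0.0571 FPKM in CHIP-KO and 0.605 ± 0.241 FPKM in wild type. Its heated mean in CHIP-KO was 3.40 ± 0.925 FPKM. The heated wild-type replicates 1, 2 and 3 stood at 10.9, 4.70 and 4.46 FPKM, so replicate 1 raised that mean.

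Pcyox1l (ENSMUSG00000024579, chromosome 18, positions 61696837 to 61707635, minus strand) is a relative of Pcyox1, the lysosomal enzyme that breaks down prenylcysteines. It ranged from 1.42 to 2.14 FPKM in heated and 4.97 to 6.37 FPKM in unheated CHIP-KO cells, and from 1.98 to 3.10 FPKM in heated and 6.71 to 7.75 FPKM in unheated wild-type cells. Both genotypes kept about the same share, 32.1% ± 4.38 in CHIP-KO and 34.2% ± 4.74 in wild type (limma log2 change -1.26, SE 0.130, adjusted p = 1.23e-05). Pcyox1 itself stood at 31.6 ± 1.22 FPKM in heated and 36.0 ± 1.29 FPKM in unheated CHIP-KO cells, a fall of 0.18 on the log2 scale, and gave -0.08 in wild type, which did not pass. Of 11 tested genes of prenyl protein processing, 1 fell and 1 rose in CHIP-KO, and 6 fell and 0 rose in wild type. When libraries had equal sums, 10 fell and 0 rose in each genotype. Those that fell in wild type included Chml, Rabggta and Icmt, which fell by 0.74, 0.71 and 0.37.

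Ttc30b and Lcmt2 were the genes with the smallest share left in CHIP-KO cells. Ttc30b (ENSMUSG00000075273, chromosome 2, positions 75935849 to 75938585, minus strand) encodes a subunit of IFT-B, the complex that carries cargo into cilia. Its replicates stood at 0.944, 0.970 and 0.773 FPKM in heated and 3.81, 4.10 and 3.51 FPKM in unheated CHIP-KO cells. In wild type they stood at 0.625, 1.11 and 1.32 FPKM heated and 4.01, 3.27 and 3.34 FPKM unheated. Replicate 1 was the lowest heated and the highest unheated wild-type library. The share left was 23.5% ± 1.93 in CHIP-KO and 28.7% ± 6.11 in wild type (limma log2 change -1.18, SE 0.124, adjusted p = 1.40e-05), and 36.7% in wild type without replicates 1.

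The paralogs of Ttc30b are close copies, so the split of reads among them is uncertain. Ttc30a1 fell in both genotypes, to 0.715 ± 0.121 FPKM in heated CHIP-KO cells, against 2.04 ± 0.400 FPKM unheated, and to 0.772 ± 0.182 FPKM in heated wild-type cells, against 1.997 ± 0.123 FPKM unheated (log2 changes -0.82 and -0.76). Ttc30a2 was below the filter, with group means of 0.0930 to 0.190 FPKM. Of 16 tested IFT-B genes, Ttc30a1 among them, 2 fell and 0 rose in CHIP-KO, and 2 fell and 8 rose in wild type. With an equal sum per library the wild-type count turned round, to 7 that fell and 1 that rose, and 13 fell and 0 rose in CHIP-KO. Ift81 and Ift172 rose in wild type by 0.47 and 0.34, while Ttc30b and Ttc30a1 fell there.

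Lcmt2 (ENSMUSG00000074890, chromosome 2, positions 121128307 to 121140653, minus strand) encodes an enzyme that completes wybutosine, a modified base next to the anticodon of phenylalanine tRNA. Its replicates stood at 0.818, 0.777 and 0.852 FPKM in heated and 3.40, 3.74 and 3.34 FPKM in unheated CHIP-KO cells. In wild type they stood at 0.588, 0.590 and 0.653 FPKM heated and 3.28, 2.97 and 2.67 FPKM unheated. The SDs of its heated groups, 0.0379 FPKM in CHIP-KO and 0.0369 FPKM in wild type, were the smallest of the 10 genes, with 50 to 70 fragments per library in CHIP-KO and 34 to 40 in wild type. The gene Adal overlaps Lcmt2 on the other strand, with up to 194 fragments in a library, and since the use of strand in counting is not stated, the split of reads between them is uncertain. The mean of Adal was 1.03 and 1.29 FPKM in heated and unheated CHIP-KO cells and 0.756 and 0.886 FPKM in heated and unheated wild-type cells. The share of Lcmt2 left was 23.3% ± 1.03 in CHIP-KO and 20.5% ± 1.40 in wild type (limma log2 change -1.30, SE 0.0751, adjusted p = 1.82e-07).

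Of 5 tested genes in the list of wybutosine enzymes and Lcmt1, 2 fell and 0 rose in either genotype by limma, where 11.4% of all tested genes fell in CHIP-KO and 30.5% in wild type. The list's median log2 change was 0.14 in CHIP-KO and -0.05 in wild type; with an equal sum per library 3 fell in CHIP-KO and 5 in wild type. The genes that fell were Trmt12 and Trmt5. Trmt12, an earlier enzyme of the pathway, fell by 0.91 in CHIP-KO, to 0.976 ± 0.214 FPKM heated, against 2.69 ± 0.137 FPKM unheated. In wild type it fell by 1.09, to 1.16 ± 0.194 FPKM heated, against 3.58 ± 0.0308 FPKM unheated. Trmt5, which makes the first modification, fell by 0.66 and 0.94. Lcmt1, a relative of Lcmt2 that methylates a phosphatase, gave log2 changes of 0.18 in CHIP-KO and -0.05 in wild type, neither of which passed.

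Zcchc3 (ENSMUSG00000074682, chromosome 2, positions 152411955 to 152415027, minus strand) encodes a zinc finger protein that binds nucleic acids and assists cGAS and the RIG-I-like receptors in antiviral sensing. Its replicates stood at 1.71, 1.98 and 1.60 FPKM in heated and 5.47, 4.98 and 5.50 FPKM in unheated CHIP-KO cells. In wild type they stood at 1.47, 1.68 and 1.98 FPKM heated and 7.70, 7.48 and 6.44 FPKM unheated. The heated libraries of both genotypes overlapped, whereas without heat CHIP-KO lay below wild type in every library. The share left was 33.2% ± 2.37 in CHIP-KO and 23.7% ± 2.41 in wild type (limma log2 change -1.60, SE 0.0890, adjusted p = 1.39e-07). Of 10 tested sensing genes, 4 fell and 0 rose in CHIP-KO, while 2 fell and 5 rose in wild type. On the equal-sum scale 8 fell and 0 rose in CHIP-KO, and 3 fell and 4 rose in wild type. Dhx58, which encodes the RIG-I-like receptor LGP2, fell in CHIP-KO by 0.51 and rose in wild type by 1.47, and Ddx58 (RIG-I) gave -0.22 in CHIP-KO, which did not pass, and rose in wild type by 0.87. Both were already higher in CHIP-KO without heat, at 26.8 against 2.48 FPKM for Dhx58 and 40.3 against 9.32 FPKM for Ddx58.

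Fam222b (ENSMUSG00000037750, chromosome 11, positions 78094660 to 78156700, plus strand), a gene of little known function, ranged from 4.43 to 5.32 FPKM in heated and 13.2 to 13.9 FPKM in unheated CHIP-KO cells. In wild type it ranged from 3.77 to 4.47 FPKM heated and 10.1 to 12.6 FPKM unheated. The shares left, 35.0% ± 2.11 in CHIP-KO and 36.1% ± 2.91 in wild type, lay within their errors of each other (wild type: limma log2 change -1.27, SE 0.0849, adjusted p = 5.17e-07). Its paralog Fam222a was below the filter, with group means of 0.0645 to 0.177 FPKM.

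Hdhd3 (ENSMUSG00000038422, chromosome 4, positions 62499008 to 62503467, minus strand) belongs to the haloacid dehalogenase family of hydrolases. Its replicates stood at 1.35, 0.724 and 0.721 FPKM in heated and 3.48, 3.34 and 3.16 FPKM in unheated CHIP-KO cells. In wild type they stood at 1.67, 1.66 and 1.52 FPKM heated and 5.57, 3.03 and 3.14 FPKM unheated. Replicate 1 was the highest of the unheated wild-type and of the heated CHIP-KO libraries. The share left was 28.0% ± 6.32 in CHIP-KO and 41.3% ± 8.86 in wild type, and 22.2% and 51.6% without replicates 1. The fall in wild type was -0.87 (SE 0.176, limma adjusted p = 0.00136). Hdhd3 rested on few fragments, with 19 to 47 in the heated CHIP-KO libraries and 38 to 44 in the heated wild-type libraries. Of 8 tested relatives, 0 fell and 0 rose in CHIP-KO by limma (2, Nanp and Pgp, had an unadjusted p under 0.05), and 4 fell and 1 rose in wild type. With libraries of equal sum 5 fell and 0 rose in CHIP-KO, and 5 fell and 1 rose in wild type. Pgp, a phosphatase gene of this family, fell in wild type by 1.57, to 36.5 ± 5.02 FPKM heated, against 110.3 ± 11.1 FPKM unheated. Hdhd2 fell in wild type by 0.16 and gave -0.01 in CHIP-KO, which did not pass.

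Efna4 (ENSMUSG00000028040, chromosome 3, positions 89333390 to 89338028, minus strand) encodes ephrin-A4, a membrane-anchored ligand of Eph receptors. Its replicates stood at 3.09, 4.56 and 4.16 FPKM in heated and 9.18, 9.69 and 9.03 FPKM in unheated CHIP-KO cells. In wild type they stood at 3.99, 5.75 and 6.02 FPKM heated and 7.26, 6.97 and 7.69 FPKM unheated. Without heat, CHIP-KO lay above wild type in every library. The share left was 42.3% ± 4.81 in CHIP-KO and 71.9% ± 8.96 in wild type, the largest share of the 10 genes in both genotypes. Without replicates 1 it was 46.5% in CHIP-KO and 80.3% in wild type. The fall in wild type was -0.43 (SE 0.133, limma adjusted p = 0.0175). The antisense gene 4731419I09Rik overlaps Efna4, with at most 27 fragments in a library, so the split of their reads is uncertain too. The call of Efna4 rested on single libraries: it was lost without heated wild-type replicate 1 (log2 change -0.27, limma adjusted p = 0.0563), without unheated wild-type replicate 3 (-0.39, limma adjusted p = 0.0532) and without both wild-type replicates 1 (-0.27, limma adjusted p = 0.0885), and the adjusted p ranged from 7.69e-04 to 0.0885 over all settings tried. Of 14 tested ephrins and Eph receptors, 2 fell and 4 rose in CHIP-KO, and 1 fell and 9 rose in wild type. Scaled to an equal sum per library, 8 fell and 2 rose in CHIP-KO, and 1 fell and 6 rose in wild type. The ligand gene Efnb3 rose in both, by 0.83 and 1.11, and the receptor genes Ephb6 and Epha3 rose in wild type by 1.97 and 0.96, while their log2 changes in CHIP-KO, 0.10 and -0.15, did not pass. Ephb6 had means of 0.559 FPKM in heated and 0.451 FPKM in unheated CHIP-KO cells, against 13.1 and 2.63 FPKM in wild type. Epha3 had 2.66 and 3.06 FPKM in CHIP-KO, against 1.25 and 0.155 FPKM in wild type.

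**Figure D3:**
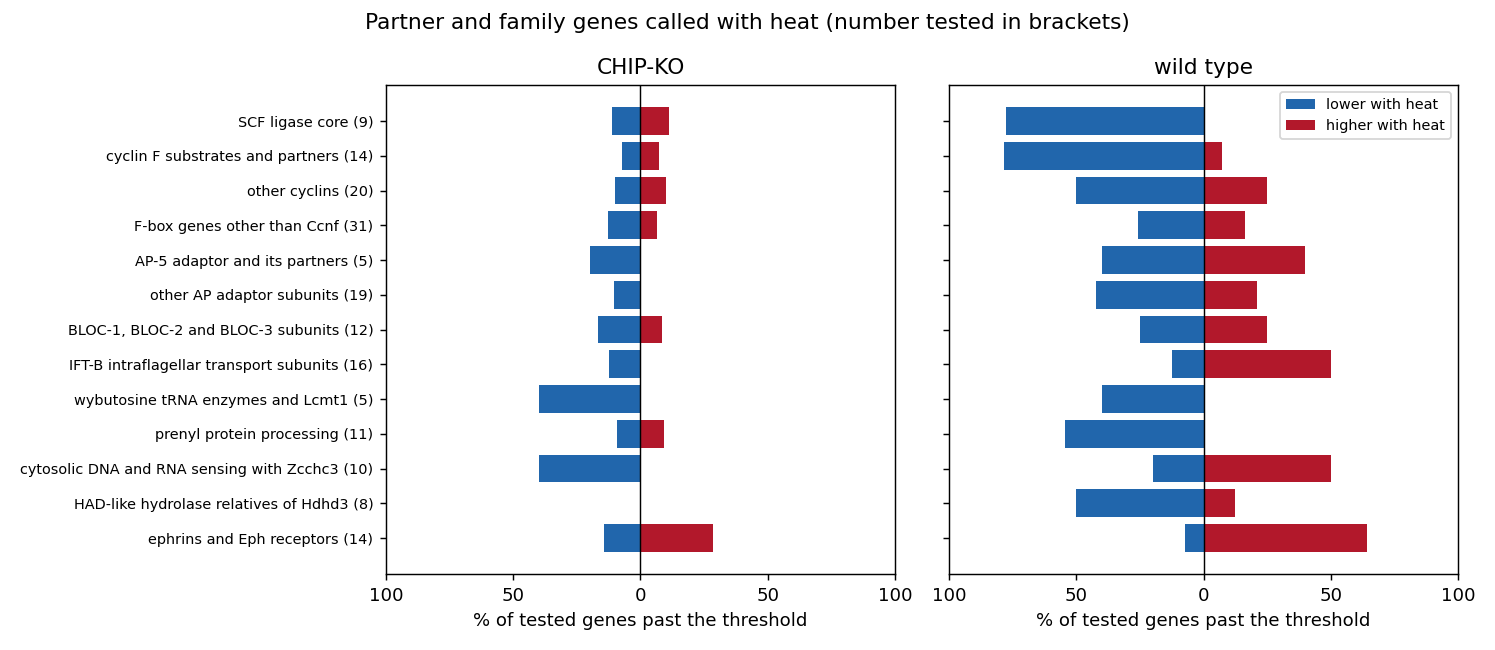
Percentage of tested genes in each partner or family list that passed the limma threshold as lower (bars to the left of 0) or higher (bars to the right) with heat, in CHIP-KO (left panel) and wild-type cells (right panel), with the number tested in brackets. SCF genes and cyclin F substrates were mostly lower in wild type (7 of 9 and 11 of 14), whereas ephrins and Eph receptors were mostly higher there (9 of 14).

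The partner lists together held 174 tested genes. In CHIP-KO 24 fell and 12 rose, and in wild type 66 fell and 43 rose, beside 11.4%, 8.65%, 30.5% and 28.1% of all tested genes. The CHIP-KO counts moved with the fit: 13 to 33 fell and 5 to 17 rose when single libraries were left out, 55 and 34 with library weights, and 137 and 4 with an equal sum per library, where wild type had 103 and 21. Among all tested genes that scaling gave 8158 lower and 567 higher in CHIP-KO, against 1481 and 1126, and 6168 lower and 2388 higher in wild type, against 3976 and 3664. No named partner gene that passed changed its sign under the 3 other scalings. Calls could still be lost. With an equal sum per library 0 F-box genes were called higher in CHIP-KO, so Fbxo30 was no longer called there. Of the IFT-B genes 1 was then called higher in wild type, so Ift81 and Ift172 did not both keep their calls. The median log2 change of the 174 genes was -0.03 in CHIP-KO and -0.07 in wild type. Ccnf and the other 9 genes had median changes of -1.30 in CHIP-KO and -1.29 in wild type, of which the CHIP-KO value follows from how they were chosen.

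The genotypes were then set side by side at each treatment. These contrasts contain CHIP-KO libraries that chose the genes, so no test is given. Without heat, Ccnf, Pcyox1l and Zcchc3 were lower in each CHIP-KO library than in any wild-type library, at 0.771, 0.773 and 0.737 times the wild-type mean. Fam222b, Lcmt2 and Efna4 were higher, at 1.20, 1.18 and 1.27 times, and the groups overlapped for the other 4 genes. Over all tested genes, 31.1% lay without overlap below and 30.1% above wild type. After heat, Ccnf, Ap5b1 and Lcmt2 were higher in each CHIP-KO library, at 1.36, 1.38 and 1.34 times the heated wild-type mean, and Hdhd3 was lower, at 0.575 times. The other 6 genes overlapped, and the shares over all tested genes were 27.7% above and 22.7% below. In 5 of the 10 genes (Ccnf, Ap5b1, Lcmt2, Hps6 and Zcchc3) wild-type cells kept the smaller share, and in 5 CHIP-KO cells did, so the genes showed no common direction of difference between genotypes. For Fam222b, Hps6, Pcyox1l, Ttc30b and Hdhd3 the ranges of share ± SE overlapped between the genotypes. Without replicates 1 Fam222b changed sides, with 36.6% left in CHIP-KO and 34.3% in wild type.

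The structure of the genes, which the choice did not use, was compared with that of 11006 tested protein-coding genes that have a coding transcript in GENCODE M21 (build GRCm38; the positions printed are those of the deposited table, and those of Ccnf, Ap5b1 and Hps6 differ from GENCODE M21). In the transcript with the longest coding sequence, Ttc30b, Lcmt2, Hps6, Zcchc3 and Hdhd3 have 1 coding exon and Ap5b1 and Fam222b have 2. Thus 7 of the 10 genes have 1 or 2 coding exons, as do 10.4% of all tested genes. Efna4 has 4 coding exons, Pcyox1l 6 and Ccnf 17. In every annotated coding transcript, 4 of the 10 (Ttc30b, Hps6, Zcchc3 and Hdhd3) have their coding sequence in a single exon, against 5.18% of all. The genes are also short on the chromosome, with a median span of 4549.5 bases against 23344 bases, although their transcripts are of ordinary length (median 2896.5 against 2959.5 bases). GC content of the transcript had a median of 56.5% in the 10 genes and 50.6% in all. The AU-rich letters TATTTAT occurred in the 3′ UTR of 2 of the 10 (Lcmt2 and Zcchc3), against 27.5% of all, so this element was not common to them.

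**Figure D4:**
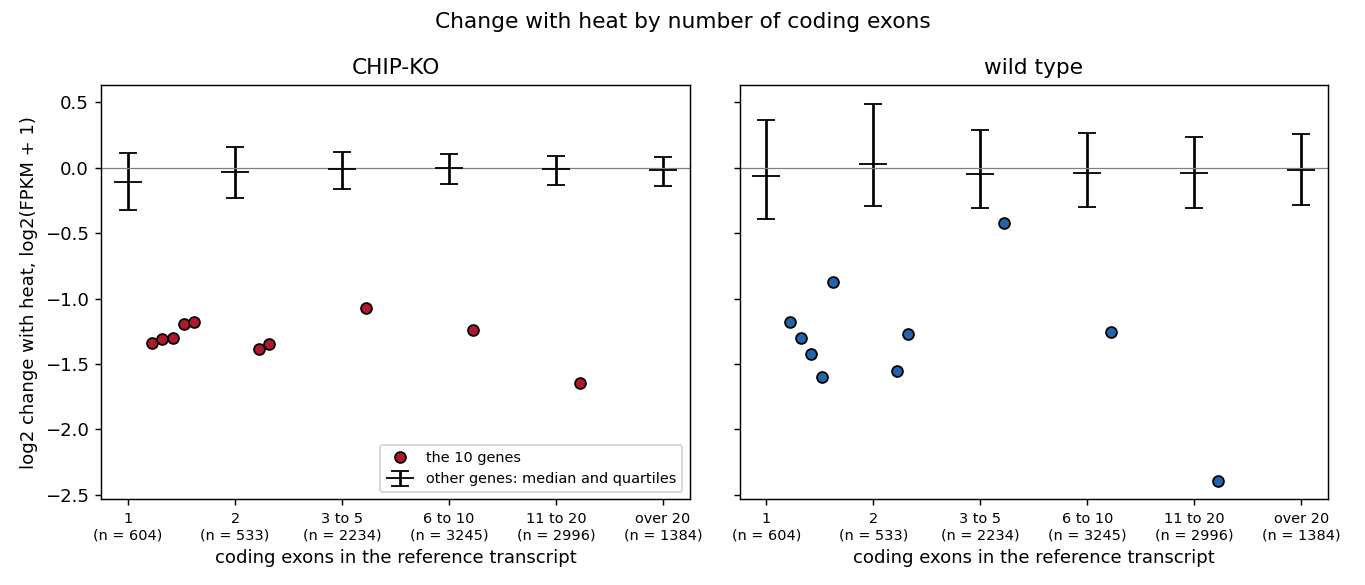
Log2 change with heat, on the log2(FPKM + 1) scale, of the 10 genes (points) and of all other tested protein-coding genes (median and quartiles, n in brackets) by the number of coding exons, in CHIP-KO (left) and wild-type cells (right). The median of other genes with 1 coding exon was -0.11 in CHIP-KO and -0.07 in wild type, while all points lie between -2.39 and -0.43.

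Genes whose levels followed those of the 10 most closely over the 12 libraries were found by Pearson correlation of log2(FPKM + 1). The libraries fall into 4 groups, so these values describe mainly the group means, and they are given with no test. The 10 genes themselves were left out of this search; Zcchc3 had r = 0.987 and Hps6 r = 0.981 with Ccnf. Among the other genes, the 5 closest to Ccnf were Hif1an, which encodes an oxygen-dependent hydroxylase of HIF (r = 0.993), Fem1a, a substrate receptor of a cullin ligase (r = 0.990), Dolk, the dolichol kinase (r = 0.984), Plekhm1, an adaptor for fusion with lysosomes (r = 0.981), and Tmem101 (r = 0.979). For the mean profile of the 10 genes they were Wdr24 (r = 0.985), Dolk (r = 0.984), Plekhm1 (r = 0.983), Wbp1l (r = 0.982) and Fem1a (r = 0.979). Dolk and Fem1a, like 5 of the 10 genes, have 1 coding exon, while Hif1an has 8, Plekhm1 11, Tmem101 4, Wdr24 9 and Wbp1l 5. Dolk stood at 8.85 ± 0.946 FPKM in heated and 18.3 ± 0.771 FPKM in unheated CHIP-KO cells, and at 8.31 ± 1.29 FPKM in heated and 19.8 ± 2.10 FPKM in unheated wild-type cells. Among the 10 genes themselves, r ranged from 0.780 to 0.990 over the 45 pairs, with a median of 0.938. High values between members, those of Zcchc3 and Hps6 with Ccnf included, follow in part from the choice. All 10 were chosen for large falls in the CHIP-KO libraries, which are among the 12 correlated.

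The choice had an edge, taken among protein-coding genes with at least 2 FPKM in the higher group and no predicted (Gm or Rik) name. A limma adjusted p under 0.05 and groups that did not overlap in CHIP-KO were also required. Among all 11027 tested protein-coding genes the 10 held ranks 1 and 3 to 11 of the falls in CHIP-KO. The last genes inside it were Hdhd3 and Efna4, at log2 changes of -1.18 and -1.07 in CHIP-KO, and the first outside were Nfkbia, the inhibitor of NF-kB, at -1.03 (17.02 ± 3.94 FPKM heated and 35.1 ± 1.74 FPKM unheated) and Pars2, the mitochondrial prolyl-tRNA synthetase, at -0.999 (0.983 ± 0.281 FPKM heated and 2.94 ± 0.248 FPKM unheated). The scale sets which genes are chosen: ranked at a pseudocount of 0.1 in place of 1, 9 of the 10 genes were among the 10 largest falls, and ranked at a pseudocount of 5 only 3 were.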

How the data were processed

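RNA of 12 libraries, 4 groups of 3, was captured by polyA and sequenced, per the labels' protocols. The authors deposited 1 table of FPKM values per gene; HISAT2 is named in the submitters' processing notes, and the counting tool, annotation and use of strand were not given in the sources used here. FPKM times gene length gave whole fragments within a tolerance of 0.01 after scaling, which set the depth. Genes with FPKM of at least 1 in at least 3 libraries (13023 of 54532) were tested on log2(FPKM + 1) with limma 3.58.1 in R 4.3.3, 4 group means and a variance trend, two-sided, with Benjamini-Hochberg adjustment at 0.05. The steps were tested on simulated data. Structure came from GENCODE M21, promoters from RefSeq (GRCm38.p6), and figures from matplotlib 3.10.9. Text names the 10 genes, per partner list up to 3 called genes with the largest change in wild type, close paralogs, and the 5 genes most like Ccnf and like the mean of the 10. The members and lists were chosen with earlier results of these data known, so the partner lists are not independent evidence. Same-numbered libraries did not deviate together (r from -0.12 to 0.00332), so replicate numbers were not used as pairs. With 3 libraries per group this cannot exclude that they were paired. Alternatives were another pseudocount, filter, scaling and fit, and leaving out libraries.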

Additional observations from a re-analysis of the deposited data

Results flagged for a closer look

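Among 41 named partner genes with a test of the difference, 24 changed with heat differently in CHIP-KO than in wild-type cells (limma interaction, adjusted p under 0.05 over all tested genes). The values are the log2 change in CHIP-KO minus that in wild type, with 3 libraries per group. In 14 genes the difference was positive. It was 0.60 for Ube2m and 0.37 for Rnf7 of the SCF neddylation machinery. For the cyclin F list it was 1.41 for Rrm2, 1.02 for Mybl2 and 0.95 for E2f2, and for cyclins 2.31 for Ccnd1, 1.33 for Ccnd2 and 1.09 for Ccnb1. For adaptor subunits it was 0.74 for Ap3m1, 0.73 for Ap1s1 and 0.71 for Ap2a2. Rabggta had 0.62, Icmt 0.34 and Pgp 1.30. In 10 genes the difference was negative. It was -1.74 for Fbxo32, -0.82 for Zfyve26, -0.40 for Ift81 and -0.31 for Ift172. Among sensing genes it was -1.98 for Dhx58, -1.09 for Ddx58 and -0.55 for Ikbke. Acad10 had -0.41, Ephb6 -1.87 and Epha3 -1.11. Some of these genes differed between genotypes before heat. Unheated means in CHIP-KO and wild type were 26.8 and 2.48 FPKM for Dhx58 and 3.06 and 0.155 FPKM for Epha3. For Ephb6 they were 0.451 and 2.63 FPKM, and the log2(FPKM + 1) scale understates changes at such low values. The 24 genes were named for their change in wild type, which is part of the difference. Over all tested genes, 17.9% had a called positive and 17.3% a called negative difference.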

How the results depend on the processing

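In wild type all 10 genes kept their direction in every alternative, and of their values 221 stayed on the same side of the threshold and 3, all of Efna4, did not. With a mean FPKM of at least 5, 4 of the genes were tested and 4 were lower, and genes called were 2011 higher in wild type, and 963 lower and 615 higher in CHIP-KO; the 10 largest falls then held 4 of the genes, and at a pseudocount of 5 they held 3. With no filter, partner genes higher in CHIP-KO numbered 6. With an equal sum per library, which moved the median of all genes by -0.30 in CHIP-KO and -0.21 in wild type, called genes were 8158 lower and 567 higher in CHIP-KO and 6168 lower and 2388 higher in wild type. Partner genes were then 137 lower and 4 higher in CHIP-KO and 103 lower and 21 higher in wild type. Genes with 1 or 2 coding exons were lower in CHIP-KO in 60.95%, and those with 1 in 61.48%. Neither share exceeded that of all tested genes, 8158 of 13023. Library weights gave 3275 lower and 2926 higher in CHIP-KO, partners 55 and 34, and shares of 38.61% and 42.76%. The 2 groups alone gave 1830 higher in CHIP-KO, with 21 partners. The voom fit gave 3007 lower in CHIP-KO, with 53 partners. Without both wild-type replicates 1, CHIP-KO had 2413 lower and 2001 higher, partners 40 and 21. Leaving out 1 library at a time gave 9 to 10 of the genes lower in wild type, 3648 to 3962 genes lower and 3385 to 3660 higher there, and partners 60 to 66 lower and 40 to 45 higher. In CHIP-KO it gave 889 to 1965 lower and 703 to 1497 higher, partners 13 to 33 lower and 5 to 17 higher, few-exon shares of 16.09% to 26.82% (1 or 2 exons) and 19.08% to 30.21% (1 exon), and 9 to 10 of the genes in the 10 largest falls. In wild type the few-exon shares were 29.55% to 31.31% and 30.92% to 33.39%. With the replicate block, 10 genes were lower in wild type, with 3713 lower and 3453 higher over all genes, and 1127 and 861 in CHIP-KO. Whether same-numbered libraries belong together is not stated in the labels. Low fragment numbers limit Hdhd3, Lcmt2 and Ttc30b.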

Other observations

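The share of genes with few coding exons among large falls was counted after the structure of the 10 genes had been seen, and those 10 were left out. Of 9592 protein-coding genes with at least 2 FPKM unheated in CHIP-KO cells, 37 were at or below 50% of the unheated level after heat. Of these 37, 18 (48.6%) have 1 or 2 coding exons, which is 2.04% of 883 such genes, against 0.218% of 8709 genes with 3 or more. In wild-type cells 297 of 9348 genes were at or below 50%, and 54 of them (18.2%) have 1 or 2 coding exons, which is 6.52% of 828 such genes, against 2.85% of 8520 others. By the limma test, genes with their coding sequence in 1 exon in every coding transcript, other than the 10, were lower in 27.6% and higher in 11.3% in CHIP-KO, against 12.5% and 7.18% of all protein-coding genes. Genes with 1 exon in every transcript were lower in 19.6% and higher in 12.2%. In wild type 34.1% of the genes with 1 coding exon and 34.2% of all were lower. The excess in CHIP-KO depended on the scaling. With an equal sum per library 61.48% of the genes with 1 coding exon were lower there. That is no larger a share than the 8158 of all 13023 tested genes, noncoding ones included. With library weights the share was 42.76%, beside 3275 of all tested genes.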
